A study of Homo sapiens with 16 samples.

Results

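RNA sequencing of LNCaP cells compared the knockdown of SLIRP with a nonsense control in the basal state, without added androgen. The 8 libraries described here are the 4 labelled SLIRP-Veh and the 4 labelled NS-Veh, chosen by those labels out of 16 libraries in all, and all genes were described. LNCaP is a line of human prostate cancer cells that responds to androgen. Cells of the NS-Veh group received 40 nM of a nonsense siRNA, and cells of the SLIRP-Veh group received 40 nM of a pool of siRNAs against SLIRP, for 24 h. Both groups were then kept for 24 h in serum-free medium with ethanol vehicle. The other 8 libraries, NS-1nM DHT and SLIRP-1nM DHT, had the same siRNAs and 1 nM dihydrotestosterone (DHT) in place of vehicle, and served here only to ask whether the effect of the siRNA differed with androgen. All libraries come from 1 cell line and 1 siRNA pool against 1 control sequence, so an effect of losing SLIRP and an effect of these siRNA sequences cannot be told apart.

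SLIRP is a small RNA-binding protein that binds the noncoding RNA SRA and acts as a corepressor of nuclear receptors. Most of the protein lies in mitochondria, where it forms a complex with LRPPRC that keeps mitochondrial mRNAs stable. Proliferating cells transcribe genes for DNA synthesis around the G1/S transition under E2F factors, and genes for mitosis later, through the CHR element of their promoters. Interferon-stimulated genes, by contrast, are transcribed when the ISGF3 complex binds an ISRE in the promoter.

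The vehicle libraries held 436353 to 1689708 estimated reads on genes, the median being 881606 for NS-Veh and 944840 for SLIRP-Veh. NS-Veh replicates 1 and 2 were the shallowest, at 512925 and 436353 reads. Component 1 of a principal component analysis took 61.4% of the variance and separated the siRNAs, with NS-Veh replicates 1 and 2 farther out than replicates 3 and 4. SLIRP-Veh replicate 2 stood apart on component 2, which took 10.6%. Markers of luminal prostate epithelium summed to 3757 to 3953 counts per 1000000 reads (CPM) in NS-Veh and 3195 to 3318 CPM in SLIRP-Veh, with 5 of the 10 tested markers called lower and 2 higher, and their part in the results below was not tested. Those of basal epithelium summed to at most 3.14, neuroendocrine cells to at most 9.48 and blood cells to at most 4.01 CPM. Endothelial markers summed to 6.004 to 11.7 CPM in NS-Veh and 2.38 to 6.77 CPM in SLIRP-Veh, all from 1 of the 4 genes, and stromal markers to 19.6 to 31.8 CPM. Fewer cells with a transcript and less of it per cell cannot be told apart in such bulk RNA.

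SLIRP, listed under its older symbol C14orf156 (hg19 chr14:78174414-78227447, plus strand), was lost from all 4 knockdown libraries. It stood at 58.1, 58.7, 64.04 and 58.7 CPM in NS-Veh and 2.97, 7.84, 4.06 and 1.76 CPM in SLIRP-Veh. The reads behind these values numbered 29, 25, 96 and 72 in NS-Veh and 5, 5, 3 and 2 in SLIRP-Veh. The groups were far from overlapping, and the log2 fold change was -4.03 ± 0.28 (SE, 4 against 4 libraries; adjusted p = 9.43e-14). Exons of SLIRP and of SNW1 on the opposite strand overlap, and it is not stated whether counting used strand. SNW1, a splicing factor, was not called (log2 fold change -0.14, adjusted p = 0.523).

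Of 9938 genes with enough reads to test, 1217 rose and 1090 fell at an FDR of 0.01, which is 12.2% and 11.0% of the genes tested and 23.2% together. Among them 376 rose and 239 fell at least 2-fold. The 4 and 4 libraries did not overlap in 30.5% of all genes tested, and 21.0% were both called and free of overlap. The median log2 fold change over all genes was -0.01. Each list of genes below is read against these shares. A listed gene with too few reads was not tested, and one that passed the filter only through the group in which it was high had to differ.

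**Figure D1:**
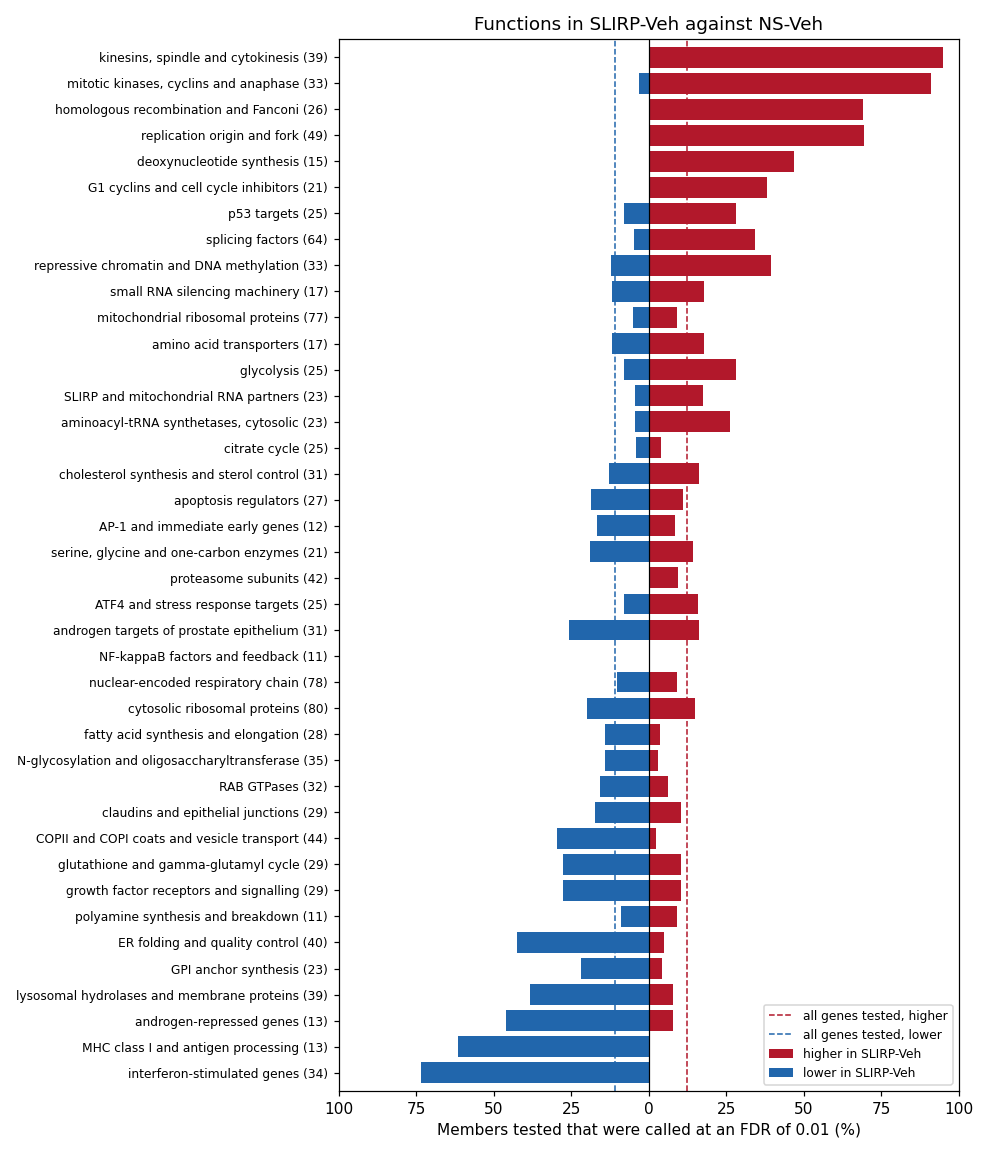
Share of the tested members of 40 gene lists that were called higher (red, to the right) or lower (blue, to the left) in SLIRP-Veh than in NS-Veh, in percent, with the number tested in parentheses and the lists ordered by median log2 fold change. Dashed lines mark the 12.2% and 11.0% of all genes tested; the cell cycle lists stand at the top, and the interferon and antigen-processing lists at the bottom with no member called higher.

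Genes of DNA replication were higher after SLIRP knockdown. Of 49 tested members of a list of origin and replication fork genes, 34 rose and 0 fell, with a median log2 fold change of 1.14. PCNA, the sliding clamp of the DNA polymerases, read 62.1, 61.05, 100.1 and 79.1 CPM in NS-Veh and 269, 387, 321 and 272 CPM in SLIRP-Veh. All 4 knockdown libraries lay above all 4 controls (log2 fold change 1.91 ± 0.13, adjusted p = 5.10e-14). MCM2, a subunit of the replicative helicase, read 24.03, 25.8, 40.03 and 23.6 CPM in NS-Veh and 116, 113, 98.9 and 115 CPM in SLIRP-Veh (log2 fold change 1.88 ± 0.16). CLSPN, an adaptor of the replication checkpoint, stood on few reads in the controls, 3, 2, 26 and 16 in NS-Veh and 120, 58, 35 and 56 in SLIRP-Veh, and rose by 2.33 on the log2 scale. CLSPN thus passed the filter through SLIRP-Veh, where it was high. WDHD1, which tethers polymerase alpha to the helicase, rose by 1.71. The 15 members not called included the polymerase subunits POLD1, POLD2 and POLE.

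Enzymes that supply deoxynucleotides held the 2 largest rises among genes with a mean of at least 50 reads. TYMS (thymidylate synthase, hg19 chr18:657653-673578, plus strand) measured 14.02, 11.7, 24.02 and 29.3 CPM in NS-Veh and 139.7, 132, 152 and 157 CPM in SLIRP-Veh, or 6.36-fold (log2 fold change 2.67 ± 0.17, adjusted p = 6.36e-15). RRM2 (the small subunit of ribonucleotide reductase, hg19 chr2:10260825-10351851, plus strand) measured 36.05, 32.9, 64.7 and 63.6 CPM in NS-Veh and 335, 340.3, 299 and 313 CPM in SLIRP-Veh (log2 fold change 2.54 ± 0.13, adjusted p = 2.20e-17). The lowest knockdown library for RRM2 was over 4 times the highest control. TYMS shares exon sequence with ENOSF1 on the opposite strand, which was not called. The partner subunit RRM1 rose by 1.22 and thymidine kinase TK1 by 0.89 on the log2 scale. In all 7 of 15 tested members of this list rose and 0 fell (median 0.61).

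Nearly all tested mitotic genes rose. Among 33 tested mitotic kinases, cyclins and anaphase regulators 30 rose, and among 39 tested genes of kinesins, spindle and cytokinesis 37 rose, with median log2 fold changes of 1.40 and 1.57. The single member that fell was CDC27, a subunit of the anaphase-promoting complex (log2 fold change -0.45), a call lost without NS-Veh replicate 1 or without SLIRP-Veh replicate 1, and no spindle gene fell. Cyclin A2 (CCNA2) stood at 8.01, 23.5, 30.02 and 26.1 CPM in NS-Veh and 109.9, 114, 108 and 103 CPM in SLIRP-Veh (log2 fold change 2.14 ± 0.18, adjusted p = 6.83e-12). MYBL2, a transcription factor that activates mitotic promoters, stood at 18.02, 14.1, 27.4 and 26.9 CPM in NS-Veh and 109.9, 138, 118 and 113 CPM in SLIRP-Veh (log2 fold change 2.29 ± 0.17). TOP2A, which untangles DNA before chromosomes separate, rose by 2.01, the proliferation antigen MKI67 by 1.98 and the CDK phosphatase CDC25A by 2.15. Among the spindle genes, CEP55, needed for the final cut between daughter cells, rose by 2.54 (10.2 ± 3.09 CPM in NS-Veh and 67.7 ± 4.28 CPM in SLIRP-Veh; SD, n = 4 each). NUSAP1 and ASPM, which organise spindle microtubules, rose by 2.11 and 1.75, and the kinetochore protein NDC80 by 1.75. In NS-Veh replicate 1, CCNA2, CDC25A, CEP55, ASPM and NDC80 each held 4 reads. These genes thus passed the filter through SLIRP-Veh, where they were high, so a rise was in part fixed in advance. How many other risen members passed in this way was not counted. ZWILCH, another kinetochore protein outside these lists, read 16.02, 11.7, 22.02 and 23.6 CPM in NS-Veh and 87.9, 111, 83.97 and 89.7 CPM in SLIRP-Veh (log2 fold change 2.17 ± 0.18).

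**Figure D2:**
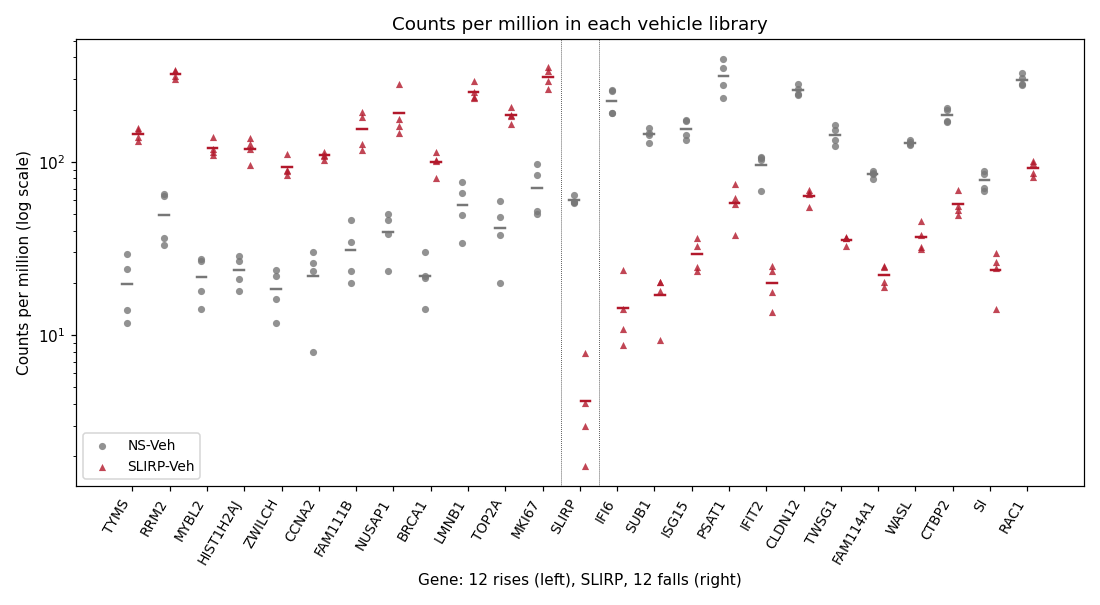
CPM (log axis) of the 12 largest rises (left), SLIRP and the 12 largest falls (right) in each of the 4 NS-Veh (grey circles) and 4 SLIRP-Veh (red triangles) libraries, with a bar at each group mean. By the rule that chose the 24 genes, the groups do not overlap in any of them; SLIRP fell from 58.1 to 64.0 CPM in the controls to 1.76 to 7.84 CPM in the knockdown.

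Homologous recombination and Fanconi genes, which repair breaks and crosslinks during replication, rose with them: 18 of 26 tested rose and 0 fell (median 1.37). BRCA1 read 22.03, 14.1, 30.02 and 21.2 CPM in NS-Veh and 114, 100.4, 103 and 80.9 CPM in SLIRP-Veh (log2 fold change 2.07 ± 0.18, adjusted p = 2.00e-11), BRCA2 rose by 1.65 and FANCI by 1.79. Of 21 tested G1 cyclins, E2F factors and cell cycle inhibitors, 8 rose and 0 fell, with a median of 0.36. E2F1, an activator of S-phase genes, rose by 1.87 and cyclin E2 (CCNE2) by 1.24. With 4, 1, 22 and 22 reads in NS-Veh, E2F1 passed the filter through SLIRP-Veh, where it was high. The CDK inhibitor CDKN1A rose as well, at 130.2, 93.9, 90.1 and 92.1 CPM in NS-Veh and 191, 188, 253 and 246 CPM in SLIRP-Veh (log2 fold change 1.16 ± 0.13). CDKN1A is also a p53 target, and of 25 tested p53 targets 7 rose, with PLK2 at 0.99 and BTG2 at 0.68, and 2 fell, with SESN1 at -0.75.

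The control libraries differed among themselves in these genes. Averaged over the spindle list, log2 CPM centred on the 8 libraries was -1.33, -1.02, -0.40 and -0.53 in NS-Veh replicates 1 to 4 and 0.79 to 0.86 in SLIRP-Veh. NS-Veh replicates 1 and 2, the shallow libraries, thus lay lowest, and the replication, mitotic and recombination lists had the same split. The part of this difference between controls in the rises was not tested. With only NS-Veh replicates 3 and 4 as controls, 32 replication, 28 mitotic, 38 spindle and 16 recombination genes were called higher, against 34, 30, 37 and 18 with all 4 controls, and 0 were called lower. Leaving out 1 library at a time left 32 to 35, 27 to 29, 34 to 40 and 15 to 19 risen members.

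**Figure D3:**
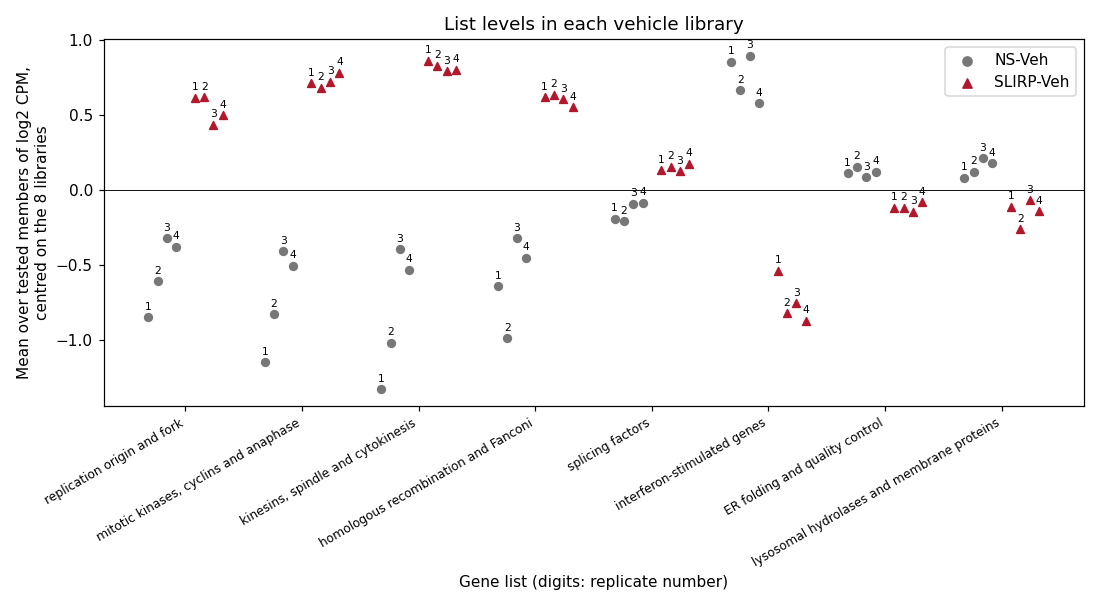
Mean over tested members of log2 CPM, centred on the 8 vehicle libraries, for 8 gene lists in each NS-Veh (grey circles) and SLIRP-Veh (red triangles) library, with replicate numbers as digits. The spindle list spans -1.33 to -0.40 in NS-Veh against 0.79 to 0.86 in SLIRP-Veh, with NS-Veh replicates 1 and 2 lowest, and the interferon list lies the other way round.

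Promoter sequences of these genes are shown because short elements were present in different shares of the replication and the mitotic lists. Windows of 300 bases (250 before to 50 after the start site, RefSeq on GRCh38.p14) were found for 8124 of the 9938 genes tested. The CHR word TTTGAA, searched on both strands, was present in 40 of 57 risen mitotic and spindle genes with a window (70.2%), in 1 of 29 risen replication genes (3.45%), in 9.5% of genes tested and in 15.4% of all 27305 windows. The E2F words TTTGGCGC and TTTCCCGC, searched on both strands, were present in 11 of 29 risen replication genes (37.9%), in 7.02% of the mitotic and spindle genes, in 4% of genes tested and in 2.31% of all windows. CCAAT, on either strand, was in 77.2% and 65.5% of these sets and in 37.6% of genes tested. Among all genes called higher with a window, the CHR word was in 16% and the E2F words in 6.23%. The lists were drawn from known genes of replication and mitosis, so their shares describe the lists and not the effect of the siRNA. The 30 bases around the match nearest the start site are given with the match in capitals, 5′ to 3′ along the gene, at GRCh37 positions found by exact match. A match describes the letters of the window and is not evidence of a bound factor.
Among the largest rises and the named replication and mitotic genes, a CHR word was in the windows of these, and neither word was in those of RRM2, MCM2, CCNA2, MYBL2, BRCA1 and ZWILCH, among others:
MKI67, chr10:129924699-129924728, minus strand: tcttcgttttcgTTTGAAttgggcgggcgc
TOP2A, chr17:38574282-38574311, minus strand: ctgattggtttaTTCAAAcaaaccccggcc
NUSAP1, chr15:41625080-41625109, plus strand: tggcgccagggaTTTGAAccgcgctgacga
CEP55, chr10:95256354-95256383, plus strand: gcagccgcgggaTTCAAActcccggaagcg
ASPM, chr1:197115895-197115924, minus strand: cggatgcaatcaTTCAAAtgaagcgccgcc
NDC80, chr18:2571541-2571570, plus strand: ccggcggagaatTTCAAAttcgaacggctt
An E2F word was in the windows of these, among them the spindle gene NUSAP1, which held both words, and CDC25A of the mitotic list:
TYMS, chr18:657603-657632, plus strand: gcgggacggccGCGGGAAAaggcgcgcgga
PCNA, chr20:5107309-5107338, minus strand: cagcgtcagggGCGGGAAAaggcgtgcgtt
CLSPN, chr1:36235566-36235595, minus strand: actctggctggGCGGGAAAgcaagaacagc
CDC25A, chr3:48229933-48229962, minus strand: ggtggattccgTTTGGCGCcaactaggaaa
NUSAP1, chr15:41624894-41624923, plus strand: gttacaggcccTTTGGCGCctgcgtattcg

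Interferon-stimulated genes fell. Of 53 listed, 34 were tested, 25 of them fell and 0 rose (median log2 fold change -1.07). IFI6, a mitochondrial and endoplasmic reticulum (ER) protein, had the largest fall among genes with a mean of at least 50 reads. It measured 258, 190.2, 255 and 191 CPM in NS-Veh and 23.8, 14.1, 10.8 and 8.80 CPM in SLIRP-Veh (hg19 chr1:27992575-27998723, minus strand; log2 fold change -3.82 ± 0.18, adjusted p = 3.93e-18). ISG15, a ubiquitin-like modifier of antiviral defence, measured 172, 143, 173 and 133 CPM in NS-Veh and 36.2, 23.5, 32.5 and 24.6 CPM in SLIRP-Veh (log2 fold change -2.36 ± 0.15, adjusted p = 1.36e-14). IFIT1, IFIT2 and IFIT3, which bind foreign RNA, changed by -4.10 ± 0.26, -2.17 ± 0.19 and -3.06 ± 0.26 on the log2 scale. OASL, a homologue of the 2′-5′ oligoadenylate synthetases, changed by -4.38 ± 0.28. Few reads remained for these genes in the knockdown. The reads of OASL were 44, 39, 130 and 82 in NS-Veh and 11, 2, 2 and 1 in SLIRP-Veh, and those of IFIT1 were 57, 38, 173 and 84 in NS-Veh and 10, 2, 6 and 5 in SLIRP-Veh. IFIT3 held 11, 5, 4 and 12 reads in SLIRP-Veh. OASL, IFIT1 and IFIT3 thus passed the filter through NS-Veh, where they were high, and so had to differ. IFI6, with 10 reads in SLIRP-Veh replicate 4, also passed through NS-Veh. These genes are among the 25, and how many others passed in this way was not counted. The count of 25 is therefore in part set by the filter. In SLIRP-Veh replicates 2, 3 and 4 OASL lay under 3 reads, the floor used. Together the 19 listed genes not tested held 520 reads in NS-Veh and 183 in SLIRP-Veh, at most 28 for a gene in a library. With 1 library left out at a time 22 to 31 members fell. The 9 tested members not called included STAT2, a subunit of ISGF3, and the RNA sensor IFIH1.

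The core of the ISRE, searched on both strands as 2 GAAA words separated by any 2 bases, was in the windows of 13 of 21 fallen interferon-stimulated genes (61.9%), of 4 of 7 that were not called, of 2.56% of genes tested and of 3.65% of all windows. The list was drawn from genes known to respond to interferon, so the share describes the list and not the effect of the siRNA. Windows of 4 of the genes with the largest falls are shown, with the match in capitals:
IFI6, chr1:27998777-27998806, minus strand: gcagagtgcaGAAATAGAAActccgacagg
ISG15, chr1:948760-948789, plus strand: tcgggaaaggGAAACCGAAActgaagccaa
IFIT1, chr10:91152267-91152296, plus strand: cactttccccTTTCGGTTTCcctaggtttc
IFIT3, chr10:91087622-91087651, plus strand: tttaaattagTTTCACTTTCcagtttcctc

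Genes of MHC class I and antigen processing fell with them, in 8 of 13 tested members against 0 that rose (median -0.53), or in 5 members without SLIRP-Veh replicate 1. HLA-B, a class I heavy chain, read 112, 93.9, 84.7 and 78.2 CPM in NS-Veh and 42.2, 56.5, 50.1 and 35.2 CPM in SLIRP-Veh (log2 fold change -1.002 ± 0.16, adjusted p = 5.53e-06). Beta-2 microglobulin (B2M), the light chain, changed by -0.56 ± 0.11, and calreticulin (CALR), an ER chaperone that loads class I molecules, by -0.82 ± 0.07. Reads of near-identical HLA genes can be split between them by the counting, so the single class I genes are uncertain. Of 11 tested NF-kappaB factors and feedback genes 0 were called in edgeR or DESeq2, with 1 at an unadjusted p under 0.05 (TRAF3), which passed without NS-Veh replicate 4. NFKB1 changed by -0.03 ± 0.12 and RELA by -0.07 ± 0.14 on the log2 scale.

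Beyond interferon, the largest falls were in genes of several kinds. SUB1, a coactivator of RNA polymerase II, read 128, 157, 143 and 147 CPM in NS-Veh and 17.8, 9.41, 20.3 and 20.2 CPM in SLIRP-Veh (hg19 chr5:32531739-32604185, plus strand; log2 fold change -3.02 ± 0.17, adjusted p = 2.28e-16). SLIRP-Veh replicate 2 held 6 reads of SUB1, which thus passed the filter through NS-Veh, where it was high. TWSG1, a secreted regulator of BMP signalling, changed by -1.95 ± 0.14, and CTBP2, a transcriptional corepressor, by -1.75 ± 0.13. FAM114A1 changed by -1.93 ± 0.17. SI (sucrase-isomaltase), an intestinal disaccharidase, changed by -1.73 ± 0.18, on 68.1, 70.4, 84.7 and 88.8 CPM in NS-Veh and 24.4, 14.1, 29.8 and 26.4 CPM in SLIRP-Veh. Of the rises, the lamin LMNB1 (2.01 ± 0.14), the replication-linked protease FAM111B (2.13 ± 0.18) and the histone HIST1H2AJ (2.19 ± 0.17) complete the 12 largest.

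Single genes of actin assembly, junctions and vesicle routing fell several-fold. RAC1, a small GTPase that drives actin assembly at the cell edge, read 304, 326, 279.5 and 277 CPM in NS-Veh and 100.4, 86.2, 81.3 and 97.7 CPM in SLIRP-Veh (log2 fold change -1.65 ± 0.11, adjusted p = 1.19e-14). WASL, which links such GTPases to the ARP2/3 complex, read 126, 134, 129 and 125 CPM in NS-Veh and 32.1, 45.5, 31.1 and 37.8 CPM in SLIRP-Veh, and the actin-severing CFL2 changed by -1.89 ± 0.19. The membrane linker MSN changed by 0.92 ± 0.17. CLDN12, a claudin of cell junctions, read 262, 282, 242 and 245 CPM in NS-Veh and 68.3, 54.9, 65.01 and 65.98 CPM in SLIRP-Veh (log2 fold change -1.97 ± 0.11). Exons of CLDN12 overlap those of CDK14, GTPBP10 and PTTG1IP2 on the same strand, and the part of these in its counts was not tested. The junction protein OCLN changed by -0.61 ± 0.10, while 5 of 29 tested junction genes fell (17.2%; 3 with only NS-Veh replicates 3 and 4 as controls) and 3 rose, so most of that list was not called. Among 32 tested RAB GTPases, which route vesicles, 5 fell (15.6%; 3 members without SLIRP-Veh replicate 1) and 2 rose. The shares lower of the junction and RAB lists were not far from the 11.0% of all genes tested. RAB6A of the Golgi changed by -1.60 ± 0.11, RAB5A of early endosomes by -0.99 ± 0.14, RAB12 by -1.67 ± 0.23 and RAB23 by 1.75 ± 0.22. RAB12 passed the filter through NS-Veh, where it was high.

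In the secretory pathway, falls were small but shared by many members of the ER folding, coat and lysosomal lists. Of 40 tested genes of ER folding and quality control 17 fell and 2 rose (median -0.29), or 1 rose without NS-Veh replicate 3 or 4. With 1 library left out at a time, 12 to 17 fell and 1 to 3 rose. With only NS-Veh replicates 3 and 4 as controls, 15 fell and 3 rose. CALR read 1678, 1766, 1841 and 1774 CPM in NS-Veh and 949, 1074, 982 and 1002 CPM in SLIRP-Veh, so the 2 groups were far apart for a highly expressed gene. HERPUD1, a component of ER-associated degradation, changed by -1.13 ± 0.13, the co-chaperone DNAJC3 by -0.76 ± 0.12 and the stress sensor ATF6 by -0.74 ± 0.13. Of 44 tested coat and vesicle genes 13 fell and 1 rose (median -0.22), the rise being lost without NS-Veh replicate 4. The lower members numbered 12 to 14 with 1 library left out at a time. LMAN1, a cargo receptor between ER and Golgi, read 407, 439, 364 and 386 CPM in NS-Veh and 167, 136, 194 and 204 CPM in SLIRP-Veh (log2 fold change -1.15 ± 0.10, adjusted p = 2.13e-11), the COPII coat gene SEC13 changed by -1.22 ± 0.19 and TMED7 by -1.13 ± 0.10. N-glycosylation lay nearer to all genes, with 5 of 35 lower (14.3%) and 1 higher, and RPN2 of the oligosaccharyltransferase at -0.56 ± 0.09. The lower members numbered 3 without NS-Veh replicate 2, 3 or 4, and 2 with only NS-Veh replicates 3 and 4 as controls. GPI anchor synthesis had 5 of 23 lower and 1 higher, but the lower members numbered 0 without NS-Veh replicate 3, 1 without SLIRP-Veh replicate 1, 2 without SLIRP-Veh replicate 2 or 4 and 3 without NS-Veh replicate 2. Of 39 tested lysosomal genes 15 fell and 3 rose (median -0.35), or 12 to 15 fell with 1 library left out at a time. The hydrolases PPT1 and CTSF changed by -0.99 ± 0.12 and -0.98 ± 0.17, whereas beta-galactosidase GLB1 rose by 0.999.

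Single metabolic genes moved in both directions, while most metabolic lists were called at shares below or not far above the 12.2% higher and 11.0% lower of all genes. PSAT1, the transaminase of serine synthesis (hg19 chr9:80912041-80945009, plus strand), read 391, 348, 232 and 276 CPM in NS-Veh and 74.3, 37.6, 56.9 and 61.6 CPM in SLIRP-Veh (log2 fold change -2.29 ± 0.15, adjusted p = 1.23e-14). Among 21 tested serine and one-carbon genes 4 fell (19.05%, or 2 members without NS-Veh replicate 4) and 3 rose (14.29%). The falls included PAICS of purine synthesis (-0.99 ± 0.08). The rises included MTHFD1 (0.72 ± 0.11) and TYMS, already counted above with the deoxynucleotide enzymes. SLC7A11, the cystine importer, read 346, 315, 255 and 266 CPM in NS-Veh and 93.9, 81.5, 111 and 100.3 CPM in SLIRP-Veh (log2 fold change -1.57 ± 0.11). It is counted with 17 tested amino acid transporters, of which 2 fell (11.76%) and 3 rose (17.65%). It is counted as well with 29 glutathione genes, of which 8 fell (27.6%, against 11.0% of all genes) and 3 rose. GGCT, which breaks down gamma-glutamyl peptides, read 42.1, 37.6, 42.03 and 50.5 CPM in NS-Veh and 160.4, 182, 168 and 149.6 CPM in SLIRP-Veh and so moved against SLC7A11 (log2 fold change 1.88 ± 0.13). GSTA4, a glutathione transferase, changed by -1.22 ± 0.19. SAT1, which starts polyamine breakdown, changed by -1.36 ± 0.14, and ODC1, which starts polyamine synthesis, by 0.47 ± 0.10. These were the called members among 11 tested polyamine genes, but without SLIRP-Veh replicate 2 the lower members numbered 2.

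Targets of ATF4, a factor that induces serine and amino acid genes under stress, were called higher in 4 of 25 tested members (16%) and lower in 2 (8%). Their median was -0.01, and the lower members numbered 1 without NS-Veh replicate 1 or 4 or without SLIRP-Veh replicate 1 or 3. EIF4EBP1, a brake on translation, changed by 1.01 ± 0.14 and the mTOR inhibitor DDIT4 by -0.73 ± 0.12. Of 31 tested sterol genes 5 were higher (16.1%) and 4 lower (12.9%). TM7SF2 changed by -0.99 ± 0.10 and SC5DL by -0.94 ± 0.12 against IDI1 by 0.78 ± 0.11 and MVK by 0.85 ± 0.20, although all 4 encode enzymes of cholesterol synthesis. Among 28 tested fatty acid genes 1 rose (3.57%), the desaturase FADS1 (0.72 ± 0.10), and 4 fell (14.29%), among them the desaturase SCD (-0.59 ± 0.07). Without NS-Veh replicate 3 or SLIRP-Veh replicate 1 the lower members numbered 2, and without NS-Veh replicate 4 the higher numbered 2. Glycolysis had 7 of 25 higher (28%, against 12.2% of all genes) and 2 lower, with the lactate transporter SLC16A1 at 0.90 ± 0.13, PGAM1 at 0.59 ± 0.09 and PFKM at -0.62 ± 0.11. The higher members numbered 4 without SLIRP-Veh replicate 4 and 4 with only NS-Veh replicates 3 and 4 as controls. The citrate cycle had 1 of 25 higher (4%) and 1 lower (4%). These counts became 2 and 2 without NS-Veh replicate 1, 2 and 0 without NS-Veh replicate 3, 1 and 0 without NS-Veh replicate 4 or SLIRP-Veh replicate 1, and 2 and 1 without SLIRP-Veh replicate 2.

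For genes under androgen control, the vehicle libraries show the state without added hormone. KLK3, which encodes prostate-specific antigen, read 30.04, 25.8, 50.7 and 52.98 CPM in NS-Veh and 92.1, 98.8, 100.2 and 96.8 CPM in SLIRP-Veh (log2 fold change 1.10 ± 0.16, adjusted p = 9.93e-07), so it rose in the absence of added androgen. KLK2, its neighbour, stood at 2.003, 2.35, 1.33 and 4.08 CPM in NS-Veh and 4.75, 4.70, 8.13 and 7.04 CPM in SLIRP-Veh, on too few reads to test. Of 31 tested androgen-induced genes, KLK3 included, 5 rose (16.1%) and 8 fell (25.8%), with a median of -0.02. Among all genes tested 12.2% rose and 11.0% fell. NCAPD3, a condensin subunit, changed by 0.86 ± 0.14, while the prostatic acid phosphatase ACPP read 387, 371, 302 and 297 CPM in NS-Veh and 135, 162, 119 and 131 CPM in SLIRP-Veh (log2 fold change -1.28 ± 0.11) and the metalloreductase STEAP2 changed by -1.13 ± 0.09. Of 13 tested androgen-repressed genes 6 fell (46.2%) and 1 rose (7.7%), or 3 and 2 with only NS-Veh replicates 3 and 4 as controls. FOLH1, prostate-specific membrane antigen, changed by -0.68 ± 0.07.

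Among coregulators of nuclear receptors, the coactivator NCOA2 changed by -0.90 ± 0.12 and the deacetylase HDAC3 by 0.94 ± 0.19. The corepressor NCOR1 (-0.06 ± 0.08) and the coactivators NCOA1 (-0.05 ± 0.10) and EP300 (0.07 ± 0.10) were not called. The RNA partner of SLIRP, SRA1, was not called either, at 12.02, 21.1, 26.02 and 25.3 CPM in NS-Veh and 18.4, 34.5, 25.7 and 21.99 CPM in SLIRP-Veh (log2 fold change 0.05 ± 0.25). TNK2, the gene of the kinase Ack1, changed by -0.80 ± 0.18 (adjusted p = 0.000725), but by -0.71 with an adjusted p of 0.0129 without NS-Veh replicate 3. Of 29 tested growth factor receptors and signalling genes 8 fell (27.6%) and 3 rose (10.3%), against 11.0% and 12.2% of all genes tested. The lower members numbered 4 without NS-Veh replicate 3 and 5 without NS-Veh replicate 4. The falls included ERBB2 (-0.79 ± 0.09) and INSR (-0.75 ± 0.17) and the rises NRAS (0.79 ± 0.12).

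For the mitochondrion, where most SLIRP resides, the lists of respiratory chain and mitochondrial ribosomal genes were called at shares below those of all genes tested. LRPPRC, the partner of SLIRP, read 238, 235, 214 and 204 CPM in NS-Veh and 273, 328, 291 and 305 CPM in SLIRP-Veh and rose by 0.44 on the log2 scale (adjusted p = 0.000337). RG9MTD1, a subunit of mitochondrial RNase P, rose by 0.57. Among 23 tested genes of SLIRP and mitochondrial RNA handling 4 rose (2 without NS-Veh replicate 2 or 4) and 1, SLIRP itself, fell. Of 78 tested nuclear-encoded respiratory chain genes 7 rose (9.0%) and 8 fell (10.3%), close to the shares of all genes tested, but 4 rose without NS-Veh replicate 1 and 3 with only NS-Veh replicates 3 and 4 as controls. NDUFA4 changed by -0.63 ± 0.14, UQCRQ by -0.65 ± 0.14 and ATP5J by 0.69 ± 0.15. Mitochondrial ribosomal proteins had 7 of 77 higher (9.09%), with MRPL32 at 1.000 ± 0.16 and MRPL42 at 0.79 ± 0.13, and 4 lower. Of the 77, called or not, 53 had a positive and 24 a negative log2 fold change (median 0.17). The higher members numbered 3 without NS-Veh replicate 3. The lower numbered 0 without SLIRP-Veh replicate 1, 1 without NS-Veh replicate 1 or 4 or SLIRP-Veh replicate 3, and 2 without NS-Veh replicate 2 or 3 or SLIRP-Veh replicate 2. Mitochondrially encoded mRNAs were not analysed here.

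Splicing factors rose by small amounts. Of 64 tested 22 rose and 3 fell (median 0.30), with the Sm proteins SNRPD1 and SNRPD3 at 0.99 ± 0.14 and 0.87 ± 0.13 and HNRNPAB at 0.84 ± 0.12. Repressive chromatin and DNA methylation genes had 13 of 33 higher and 4 lower, or 2 lower without any 1 library other than SLIRP-Veh replicate 2. HMGB2 read 28.04, 30.5, 43.4 and 43.2 CPM in NS-Veh and 147, 158, 144 and 141 CPM in SLIRP-Veh, the chromatin remodeller HELLS changed by 1.89 ± 0.20 and the maintenance methyltransferase DNMT1 by 1.26 ± 0.14, all of which are also abundant in dividing cells. Cytosolic ribosomal proteins went both ways, 12 higher (15%) and 16 lower (20%) of 80, or 8 lower without SLIRP-Veh replicate 1 and 10 without NS-Veh replicate 3. RPL26 changed by 0.78 ± 0.10 and RPL36 by -0.60 ± 0.09. Because ribosomal protein genes have many processed pseudogenes, their counts are uncertain. Proteasome subunits were 4 higher (9.52%) and 0 lower of 42, with PSMA5 at 1.04 ± 0.17. The higher members numbered 2 without NS-Veh replicate 4 or with only NS-Veh replicates 3 and 4 as controls. Cytosolic tRNA synthetases were 6 higher (26.1%, or 3 members without NS-Veh replicate 3) and 1 lower (4.35%) of 23, the fall being QARS (-1.14 ± 0.13). The small RNA silencing machinery had 3 of 17 higher (17.65%), among them DICER1 (0.57 ± 0.11), and 2 lower (11.76%). Of 27 tested apoptosis genes 3 rose (11.1%), among them the caspase CASP8 (1.01 ± 0.18), and 5 fell (18.5%). The lower members numbered 2 without SLIRP-Veh replicate 2, 3 without NS-Veh replicate 1 or 4 or SLIRP-Veh replicate 3, and 1 with only NS-Veh replicates 3 and 4 as controls. Of 12 tested AP-1 and immediate early genes SRF rose (1.29 ± 0.21), and FOSL2 (-0.79 ± 0.13) and JUND (-0.62 ± 0.12) fell. The shares of the proteasome, silencing, apoptosis and AP-1 lists were below or not far above the 12.2% higher and 11.0% lower of all genes tested.

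Whether these changes depended on androgen was asked by testing the siRNA effect in vehicle against that in DHT, over all 16 libraries. Of 10684 genes 0 differed at an FDR of 0.01 or 0.05 in edgeR, with 388 at an unadjusted p under 0.05 where 534 are expected by chance, and DESeq2 likewise called 0, with 196. The DHT comparison shares no library with the vehicle comparison. Of the 1217 genes that rose in vehicle, 1216 had a positive fold change in DHT and 982 were called higher there. Of the 1090 that fell 1086 were negative and 835 called lower. Among all genes tested in DHT, 12.8% were called higher and 11.6% lower. TYMS rose by 1.99 in DHT against 2.67 in vehicle, and RRM2 by 1.93 against 2.54 (unadjusted p = 0.00168 for the difference in edgeR). Each of the 12 largest rises was smaller in DHT, but they were chosen by their size in vehicle. List medians were 0.85 in DHT against 1.37 for recombination, 1.135 against 1.40 for mitotic and -1.30 against -1.07 for interferon-stimulated genes. None of these rises differed after adjustment, and 0 calls does not show that the effects were equal. IFI6 changed by -3.66 and OASL by -5.54. KLK3 rose by 0.37 in DHT against 1.10 in vehicle, a difference with an unadjusted p of 0.000454 that did not pass adjustment over all genes. No function described above can therefore be called particular to the basal state.

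**Figure D4:**
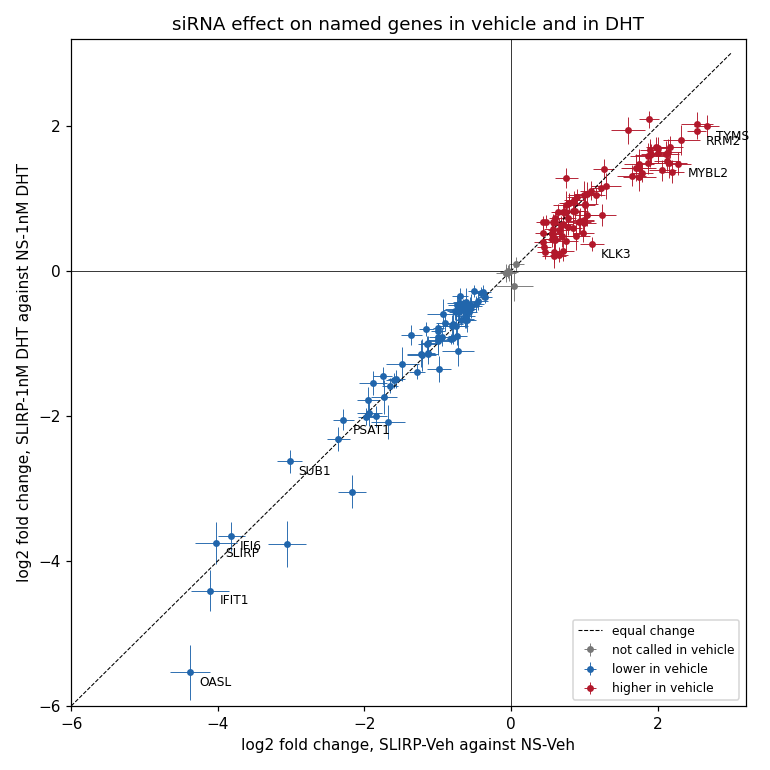
Log2 fold change with SLIRP siRNA in vehicle (x axis) and in 1 nM DHT (y axis) for the named genes that were tested, with SE bars, coloured by the call in vehicle; the dashed line marks equal change. TYMS at 2.67 and 1.99 and OASL at -4.38 and -5.54 lie near the ends of the line, and KLK3 at 1.10 and 0.37 lies below it.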

How the data were processed

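RNA of 16 libraries of LNCaP cells was sequenced as single 50-base reads, 2 biological replicates from each of 2 experiments per group. Which replicate numbers belong to which experiment is not given in the sources used here, so p-values measure the spread between these libraries, part of which may be technical. The submitters' processing notes name CASAVA, RSEM and hg19. The authors deposited estimated counts per gene as whole numbers (20531 entries by symbol and Entrez identifier) and a normalized table, whose linear score is the count divided by the upper quartile of its library (genes at 0 left out) times 1000. No authors' fold changes were used. The 29 entries with no symbol held 0.0353% of the counts.

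The estimated counts of the 8 vehicle libraries were analysed in edgeR 4.0.16 (R 4.3.3) with TMM normalization, filterByExpr, glmQLFit and glmQLFTest, p-values adjusted by Benjamini-Hochberg across the 9938 genes tested, at an FDR of 0.01. CPM are counts per 1000000 of the effective library size, which is the reads on the genes tested times the TMM factor. They therefore differ from reads divided by the library totals given above. SE is the log2 fold change divided by the square root of F. The siRNA effects in vehicle and DHT were compared in a 4-group model of 16 libraries. Alternatives were DESeq2 1.42.0, limma 3.58.1 on the normalized table (log2 of value + 1), other normalizations and filters, the replicate block and leaving out each library, and, chosen after seeing the data, only NS-Veh replicates 3 and 4 as controls. The models were tested on simulated data.

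Members and gene lists were chosen with earlier results of these data known. Named genes were SLIRP, the 12 largest rises and 12 largest falls among called genes without overlap whose mean count reached 50, up to 4 called members of largest change per list with a mean count of at least 30 (2 members of highest count where fewer than 2 were called), and genes the paper names; those whose call failed without 1 library were mostly left to the closing section. Gene positions are from GENCODE v44lift37 and promoter windows from RefSeq. Exons of other named genes overlap those of neighbours too, among them ZWILCH with RPL4, CCNA2 with EXOSC9, and IFIT2 and IFIT3 with LIPA, all on the opposite strand. A count of 3 is the floor used, for counting error only. Some genes and 2 gene lists are not reported here. Figures used matplotlib 3.10.9.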

Additional observations from a re-analysis of the deposited data

Results flagged for a closer look

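In each group of 4 libraries the highest or lowest CPM of a named gene was looked at where its gap to the nearest other library was above Dixon's critical share of the group's range. Of 346 groups 23 (6.65%) did, where chance gives about 1 in 20, or 17. SLIRP-Veh replicate 2 held 9 of them. It was the high one for ATP5J (211.7 CPM), B2M (291.7 CPM), FOLH1 (1413 CPM), IDI1 (282.3 CPM), SAT1 (67.43 CPM), SNRPD1 (152.1 CPM) and ST7 (318.3 CPM), and the low one for OPLAH (6.273 CPM) and UBE2T (34.5 CPM). SLIRP-Veh replicate 1 was high for WDHD1 (80.82 CPM). SLIRP-Veh replicate 3 was high for PLK2 (165.2 CPM) and PPT1 (115.1 CPM) and low for STT3B (131.4 CPM).

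Among the controls, NS-Veh replicate 1 was high for CDKN1A (130.2 CPM). NS-Veh replicate 2 was high for EP300 (246.5 CPM) and HDAC3 (39.92 CPM) and low for FASTKD5 (28.18 CPM). NS-Veh replicate 3 was high for SLIRP, listed as C14orf156 (64.04 CPM against 58.08 to 58.70 CPM), CDC25A (20.01 CPM) and MCM2 (40.03 CPM). NS-Veh replicate 4 was high for ODC1 (512.7 CPM) and low for IFIT2 (67.65 CPM) and RAB12 (37.49 CPM). No cause was tested for any of these values.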

How the results depend on the processing

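No gene called in vehicle changed sign under any of the alternatives run. The 1217 higher and 1090 lower genes became 697 and 584 (1281 in all) with limma on the normalized table, 925 and 749 with DESeq2, 1684 and 1643 at an FDR of 0.05, and 844 and 715 at a fold of at least 1.5. Leaving out 1 library at a time gave 935 to 1201 higher, 812 to 1042 lower and 1763 to 2243 genes in all; with only NS-Veh replicates 3 and 4 as controls there were 981 and 802. Same-numbered libraries correlated by 0.015 to 0.063 over 6804 genes and 2 of 4 numbers fitted best with their own. This check asked only about equal numbers, so whether libraries pair by experiment was not tested, and no block for experiment was fitted. The replicate block gave 1197 higher and 1094 lower genes and kept 2160 of the 2307 calls. The difference between vehicle and DHT, 0 genes, became 11 with no filter on low counts (16 at an FDR of 0.05, KLK3 among them) and 1 (EIF3C) without NS-1nM DHT replicate 2, and lay between 0 and 1 over all fits without 1 library; the cause was not tested. Of 166 called named genes 32 lost the call under some setting and 20 without 1 library, among them FASTKD5, TFAM, CDK4, ACACA, STT3B, PGAP2, GPAA1, PIGY, PPL, PSMD5, PSMD1, HK2, PC and BOK. At 436353 to 1689708 reads a library, genes at a few CPM, such as KLK2, could not be tested.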

Other observations

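Histone genes were looked at after their values were seen, because HIST1H2AJ was among the largest rises. Of 67 entries named HIST1 to HIST4 in the table, 38 had enough reads to test, and 27 of them were higher and 1 lower in SLIRP-Veh, the log2 fold changes running from -0.39 to 2.48 around a median of 1.05. Replication-dependent histone genes supply the core histones of new chromatin in S phase. Their copies are similar in sequence, so reads can be split between them by the counting.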
